A study of Rattus norvegicus with 10 samples.

Results

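The interferon-stimulated genes described here are 42 genes that cells switch on after an interferon signal, among them *Mx1*, *Mx2*, *Isg15*, *Irf7* and members of the Oas, Ifit, Gbp, Slfn and Parp families. They were chosen by name as known interferon-induced genes and not by a threshold on their values. The choice was made with earlier results of these data known, so counts of members are a description. All 42 were found among the 14166 genes of the bulk RNA-seq table, and all 42 among the 25399 genes of the nucleus matrices. Entrez numbers were matched to gene symbols, and 2 members needed another symbol: *Slfn13* carries the current RefSeq symbol *Slfn9*, and *Ddx58*, which encodes RIG-I, was found under *Rig1*.

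The animals were adult male Sprague-Dawley rats without any genetic change, and the tissue was the ipsilateral dentate gyrus, taken in operated animals 3 weeks after the injury or its sham counterpart. TBI animals received a moderate lateral fluid percussion injury (LFPI), in which a pressure pulse of fluid strikes the exposed dura some days after a craniectomy. Sham animals had the same anesthesia and craniectomy but no pulse, whereas the naïve animal had no surgery. Bulk RNA-seq covered 3 sham and 3 TBI animals, and single nucleus RNA-seq (snRNA-seq) covered 2 TBI animals, 1 sham animal and 1 naïve animal. Each library came from 1 animal, and sham animals carry the local effects of the craniectomy, so the bulk comparison is of the fluid pulse on top of surgery.

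Interferons are secreted proteins that bind receptors on nearby cells and activate the kinases Jak1 and Tyk2. Transcription factors that include Stat2 and Irf9 then bind a DNA element called the interferon-stimulated response element (ISRE), while interferon gamma acts through the gamma-activated sequence (GAS). The genes switched on encode RNA sensors, transcription factors that extend the response, and proteins that block viral replication, and in brain tissue they are well known from microglia, astrocytes and the vascular endothelium.

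The bulk libraries held 25121893 to 44649404 estimated counts, and the nucleus libraries kept 11285 to 16931 nuclei with 26086141 to 35293678 unique molecular identifiers (UMIs). Sham animal 2 stood apart in bulk for oligodendrocyte markers (17657 CPM, which are counts scaled to a common library size, summed over 8 genes, against 5294 to 8258 in the other libraries), and TBI animal 3 for fibroblast markers (1543 against 55.2 to 263 CPM over 7 genes). All 8 glutamatergic neuron markers were present in the bulk table, with summed levels of 3550 to 5191 CPM. The 4 nucleus matrices listed explicit zeros among their stored entries, at 1.63% in TBI animal 1, 27.4% in TBI animal 2, 11.1% in the sham animal and 15.5% in the naïve animal. The deposited counts may therefore not be raw UMIs, since no source read here says whether they were corrected before deposit, and the part of this in the nucleus levels was not tested. Between 45 and 60 cell barcodes were shared by each pair of libraries. In microglia, astrocytes and endothelial nuclei the neuronal transcript *Slc17a7* was read at 123 to 389 CPM, against 389 to 631 CPM in glutamatergic neurons, so transcripts of other cells were read in these classes.

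The DNA letters through which the interferon signal is read were looked up first, because they are the feature that interferon-stimulated genes are known to share and that the choice of members did not use. RefSeq (assembly GRCr8) gave promoter sequence for 34 of the 42 members, with entries missing for *Ddx58*, *Dhx58*, *Zbp1*, *Adar*, *Ifit2*, *Mx2*, *Isg15* and *Usp18*. The ISRE letters GAAANNGAAA, searched on both strands in the 250 bases before the start of transcription, were found in 18 of 34 members (52.9%), compared with 2.60% of 11242 promoters of genes in the bulk table and 3.29% of 27457 promoters in all. The GAS letters TTCNNNGAA were found in 12 of 34 members (35.3%), compared with 5.89% of bulk-table promoters and 7.52% of all promoters. Both kinds of letters occurred in 7 members, and in 1 of them (*Bst2*) they shared bases. The stretches below are shown because they belong to the 9 members with ISRE letters whose levels in every bulk library are given further on. Each is read 5′ to 3′ on the strand of its gene, with the ISRE letters in capitals, and on the opposite strand the same element reads TTTC, any 2 bases, TTTC.
Irf7 (chr1:205800068-205800107, minus strand): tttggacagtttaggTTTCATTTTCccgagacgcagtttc
Oas1a (chr12:41330416-41330455, plus strand): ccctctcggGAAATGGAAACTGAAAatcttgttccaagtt
Rsad2 (chr6:48788243-48788282, minus strand): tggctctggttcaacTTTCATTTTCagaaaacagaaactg
Eif2ak2 (chr6:21941123-21941153, plus strand): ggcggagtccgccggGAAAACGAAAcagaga
Ifitm3 (chr1:205541778-205541817, minus strand): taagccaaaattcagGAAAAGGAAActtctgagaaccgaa
Irgm (chr10:33742588-33742627, minus strand): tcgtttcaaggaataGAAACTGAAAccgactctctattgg
Parp14 (chr11:78408043-78408082, plus strand): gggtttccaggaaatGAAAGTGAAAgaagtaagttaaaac
Xaf1 (chr10:57415909-57415934, plus strand): tgttttgtgtgcaaaGAAACAGAAAc
Ifi27 (chr6:128355213-128355252, plus strand): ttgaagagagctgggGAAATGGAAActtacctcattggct
In *Oas1a* 2 matches overlap and appear as one run of capitals. The stretches shown lay between 11 bases (*Xaf1*) and 147 bases (*Rsad2*) before the start, and *Ifi27* held a further match 169 bases before it that is not shown. A match describes letters and not a bound site, and *Mx1*, *Slfn4* and *Slfn13* had no ISRE letters in this window.

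In bulk RNA-seq, 33 of the 42 interferon-stimulated genes were higher in TBI than in sham animals at an unadjusted p under 0.05, and 0 were lower. Across all 14166 genes, 8.2% were higher and 1.4% were lower at that level. The median difference of the members was 0.92 on the log2 scale, whereas the median of all genes was -0.00, and 21 members lay above 0.94, the 95th percentile of all genes. The groups were fully separated, with all TBI animals higher, for 31 members (10.2% of all genes) and with all TBI animals lower for 1 member, *Adar* (4.84% of all genes). Of the 42 differences 41 were positive, with a range of -0.15 to 2.05. Because the list was made with earlier results of these data known, these counts are not an independent test.

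With 3 animals in each group and adjustment over all genes, edgeR's quasi-likelihood test called 0 genes at a false discovery rate (FDR) of 0.01, members included (0% of all genes), and limma called 0. The smallest adjusted p of a member was 0.196, shared by 9 members. DESeq2 called 169 genes (1.19%), of which 11 were members: *Mx2*, *Slfn13*, *Xaf1*, *Rsad2*, *Ifi35*, *Oas1a*, *Dhx58*, *Isg15*, *Irgm*, *Irf8* and *Parp14*, all with higher levels in TBI. When its p-values were adjusted only over genes with p under 0.05, DESeq2 called 475 genes (3.35%), of which 21 were members.

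**Figure D1:**
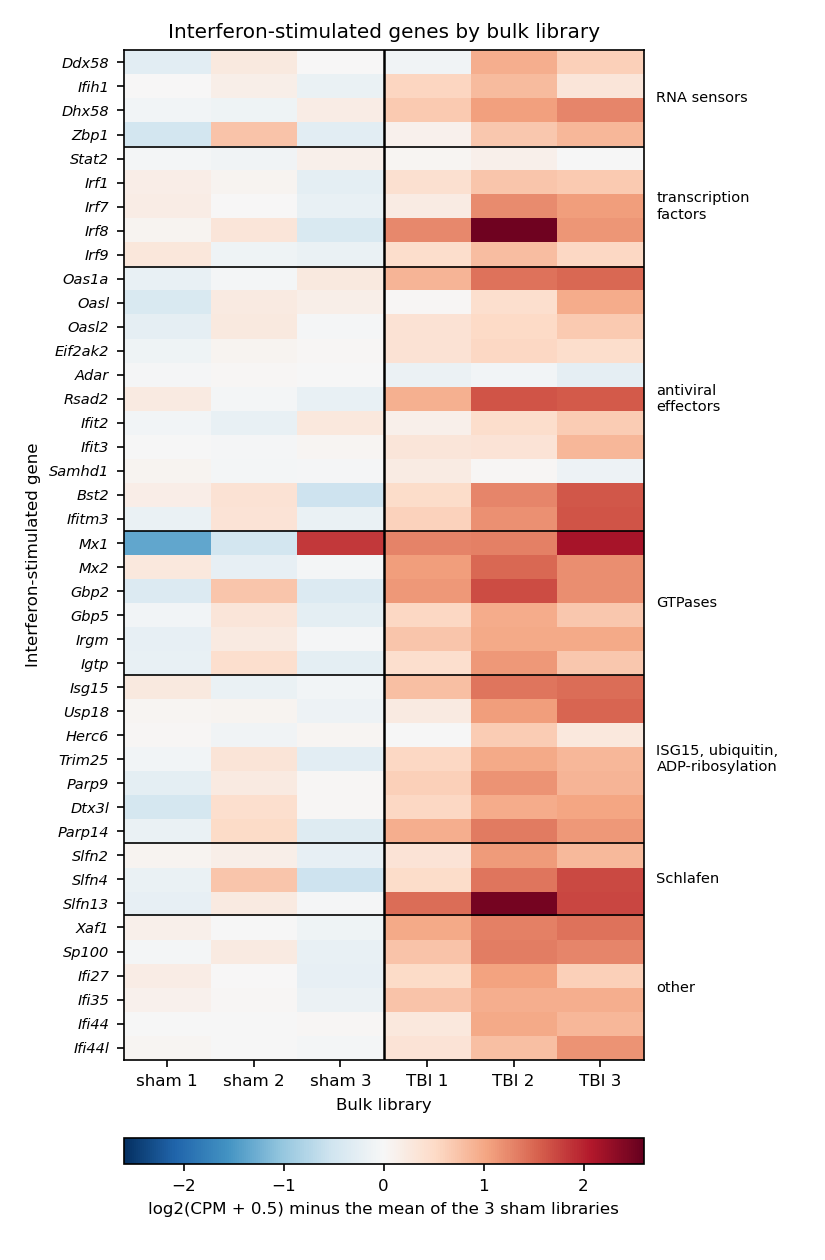
Each line is 1 of 42 interferon-stimulated genes grouped by role, each column 1 bulk library (3 sham, 3 TBI), and color gives the log2 of CPM plus 0.5 minus the mean of the 3 sham libraries. The TBI columns are mostly above the sham mean, TBI 2 holds the highest level of 23 members and TBI 3 that of 17, and *Adar* is below it in all 3 TBI libraries.

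**Figure D2:**
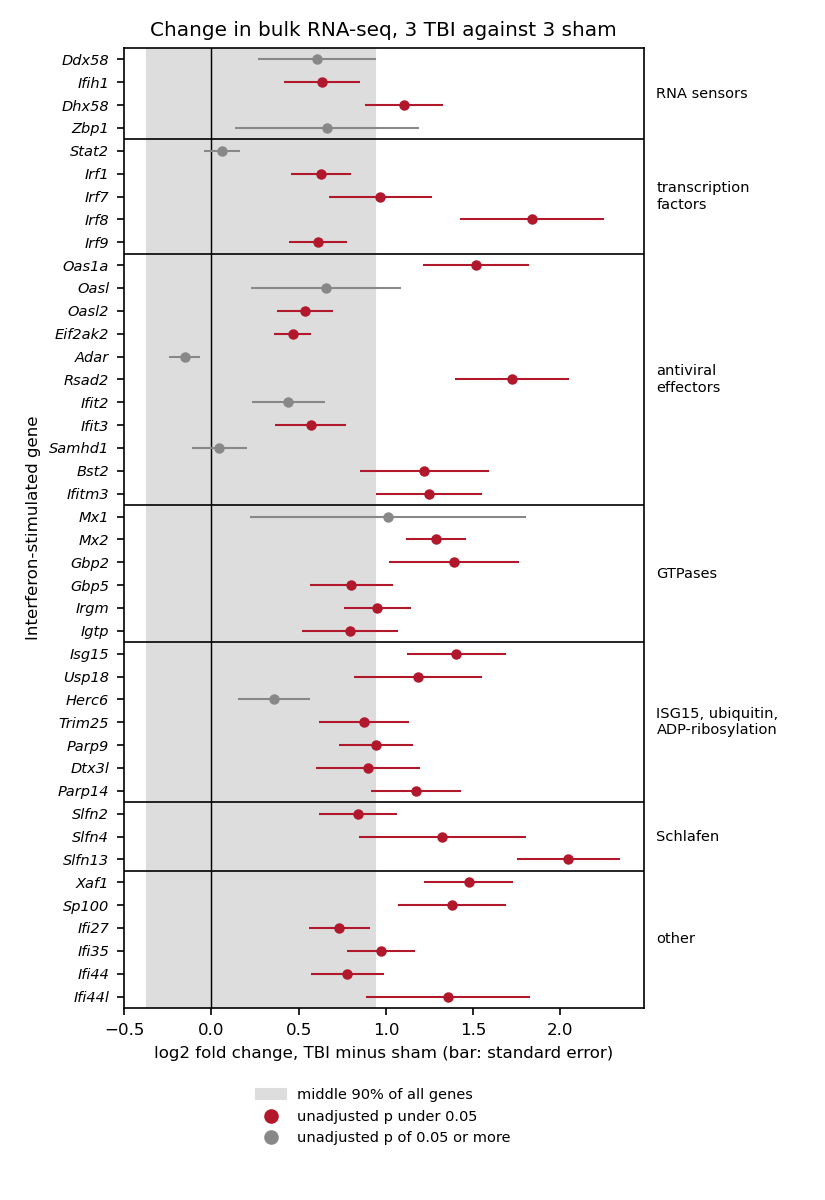
The horizontal axis is the log2 fold change of TBI minus sham with its standard error for each of the 42 genes, and the gray band spans the middle 90% of all 14166 genes. Points of 33 members in red passed an unadjusted p of 0.05, all to the right of zero, and 21 members lie to the right of the band.

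Among the 4 RNA sensors, which recognize foreign or misplaced nucleic acid, 2 were higher at an unadjusted p under 0.05, with a median difference of 0.65. *Dhx58*, encoding LGP2, was at 3.69, 3.58 and 4.57 CPM in sham and at 6.59, 8.77 and 10.1 CPM in TBI. The groups did not overlap, and the difference was 1.10 ± 0.22 on the log2 scale (standard error here and below, adjusted p = 0.196). *Ifih1*, encoding MDA5, also had no overlap, at 3.80 to 4.85 CPM in sham and 5.51 to 8.06 CPM in TBI. For *Ddx58* and for *Zbp1*, a sensor of Z-form nucleic acid, the groups overlapped, with differences of 0.61 ± 0.34 and 0.66 ± 0.53.

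Of the 5 transcription factors, 4 were higher at that level and separated between groups, with a median of 0.63. *Irf8*, a factor that microglia need for their identity, was at 7.95, 9.59 and 5.64 CPM in sham and at 18.7, 46.3 and 17.4 CPM in TBI, a difference of 1.83 ± 0.41 (adjusted p = 0.205). TBI animal 2 was far above the other TBI animals, and without it the difference was 1.21. *Irf7*, the amplifier of type I interferon production, was at 5.82, 5.07 and 4.38 CPM in sham and at 5.94, 12.5 and 11.3 CPM in TBI. Its difference was 0.97 ± 0.29 (adjusted p = 0.319), and TBI animal 1 was barely above the highest sham animal. *Irf9* and *Irf1* had differences of 0.61 ± 0.17 and 0.63 ± 0.17. *Stat2* was at 42.6 to 49.8 CPM in sham and 45.1 to 49.9 CPM in TBI, with a difference of 0.06 ± 0.10.

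The 11 antiviral effectors had 7 members higher at an unadjusted p under 0.05 and a median of 0.57. *Rsad2*, whose product viperin makes a chain-terminating nucleotide, was at 1.64, 1.27 and 1.10 CPM in sham and at 2.97, 5.17 and 5.02 CPM in TBI. Its difference of 1.72 ± 0.32 was the largest of this group (adjusted p = 0.196). *Oas1a*, which synthesizes the oligoadenylates that activate RNase L, was at 1.26, 1.42 and 1.87 CPM in sham and at 3.17, 4.81 and 5.09 CPM in TBI, with a difference of 1.52 ± 0.30. No TBI animal reached down to the sham range in either gene. *Ifitm3*, a membrane protein that blocks viral entry, was at 5.10, 7.65 and 5.11 CPM in sham and at 9.08, 13.9 and 19.3 CPM in TBI, with a difference of 1.25 ± 0.30 (adjusted p = 0.235). *Eif2ak2*, encoding the kinase PKR that halts translation on double-stranded RNA, was at 23.4, 26.4 and 25.8 CPM in sham and at 32.8, 37.0 and 34.6 CPM in TBI. This was a smaller difference of 0.46 ± 0.10 with tight groups (adjusted p = 0.205). *Bst2*, *Ifit3* and *Oasl2* were also separated between groups, with differences of 1.22 ± 0.37, 0.57 ± 0.20 and 0.53 ± 0.16.

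The other 4 effectors did not pass an unadjusted p of 0.05. *Ifit2* and *Oasl* had differences of 0.44 ± 0.21 and 0.66 ± 0.43, and *Samhd1*, which depletes nucleotides, had 0.05 ± 0.16. *Adar*, the enzyme that edits adenosine in double-stranded RNA, was at 108 to 111 CPM in sham and 92.4 to 104 CPM in TBI. It was the one member lower in every TBI library, with a difference of -0.15 ± 0.09 (adjusted p = 0.669).

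The 6 interferon-induced GTPases had 5 members higher at that level and a median of 0.98. *Mx2*, a dynamin-like antiviral GTPase, was at 19.97, 14.2 and 15.98 CPM in sham and at 35.5, 47.7 and 39.1 CPM in TBI, and its difference of 1.29 ± 0.17 had the smallest p of all members (adjusted p = 0.196). Its relative *Mx1* was at 1.90, 3.92 and 21.5 CPM in sham and at 14.5, 14.9 and 26.6 CPM in TBI. Sham animal 3 was above TBI animals 1 and 2, the difference was 1.01 ± 0.79 (adjusted p = 0.762), and without sham animal 3 it was 2.66. *Irgm*, an immunity-related GTPase, was at 4.11, 5.82 and 4.73 CPM in sham and at 8.31, 10.0 and 10.0 CPM in TBI, with a difference of 0.95 ± 0.19. *Gbp2*, a guanylate-binding protein, was at 2.62 to 6.08 CPM in sham and 8.27 to 12.5 CPM in TBI, with a difference of 1.39 ± 0.37. Both were separated between groups, as was *Gbp5* (0.80 ± 0.24), whereas *Igtp* overlapped (0.79 ± 0.28).

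The 7 genes of the ISG15, ubiquitin and ADP-ribosylation group had 6 members higher at that level, each without overlap, and a median of 0.94. *Isg15*, the ubiquitin-like protein that is joined to other proteins during the response, was at 2.66, 1.87 and 2.03 CPM in sham and at 4.10, 6.47 and 6.76 CPM in TBI, with a difference of 1.40 ± 0.28 (adjusted p = 0.196). *Usp18*, the protease that removes *Isg15* and dampens receptor signaling, was at 2.15 to 2.54 CPM in sham and 2.89 to 7.73 CPM in TBI. The ADP-ribosyltransferase *Parp14* was at 5.48, 8.99 and 4.85 CPM in sham and at 12.5, 16.7 and 14.3 CPM in TBI, with a difference of 1.17 ± 0.26 (adjusted p = 0.203). *Parp9* was at 5.25, 7.61 and 6.55 CPM in sham and at 10.1, 14.9 and 12.3 CPM in TBI, with a difference of 0.94 ± 0.21, and *Dtx3l*, the ubiquitin ligase that binds *Parp9*, had 0.90 ± 0.30. *Trim25*, a ubiquitin ligase of the RIG-I pathway, had 0.88 ± 0.26. *Herc6*, a ligase of the HERC family, overlapped between groups at 0.36 ± 0.20.

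All 3 Schlafen genes were higher at an unadjusted p under 0.05, with a median of 1.32. *Slfn13* was at 4.41, 6.23 and 5.06 CPM in sham and at 15.1, 31.3 and 18.4 CPM in TBI, and its difference of 2.05 ± 0.30 was the largest among the 42 members (adjusted p = 0.196). The lowest TBI animal was well above the highest sham animal. *Slfn4* was at 2.28, 4.70 and 1.66 CPM in sham and at 3.86, 7.70 and 9.91 CPM in TBI, so TBI animal 1 was below sham animal 2, with a difference of 1.32 ± 0.48 (adjusted p = 0.415). *Slfn2* was separated between groups, at 0.84 ± 0.22. Schlafen, Mx, Oas, Gbp, *Irgm* and *Igtp*, and *Ifi27* genes have near copies in the rat genome, and the deposited values cannot show how reads were split among them.

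The remaining 6 members were all higher at that level and all separated between groups, with a median of 1.16. *Xaf1*, a pro-apoptotic partner of XIAP, was at 1.83, 1.60 and 1.47 CPM in sham and at 3.70, 4.78 and 5.13 CPM in TBI, with a difference of 1.47 ± 0.25. *Sp100*, a component of nuclear bodies, was at 1.37, 1.75 and 1.19 CPM in sham and at 2.73, 4.32 and 4.12 CPM in TBI, with a difference of 1.38 ± 0.31. In both genes the lowest TBI animal was well above the highest sham animal. *Ifi35* was at 3.73, 3.47 and 3.03 CPM in sham and at 6.02, 7.019 and 6.998 CPM in TBI, with a difference of 0.97 ± 0.19. *Ifi27* was at 109, 95.6 and 81.8 CPM in sham and at 135, 196 and 145 CPM in TBI, with a difference of 0.73 ± 0.17 (adjusted p = 0.224). *Ifi44* and *Ifi44l* had differences of 0.78 ± 0.21 and 1.36 ± 0.47, the latter from levels of 0.420 to 1.63 CPM.

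**Figure D3:**
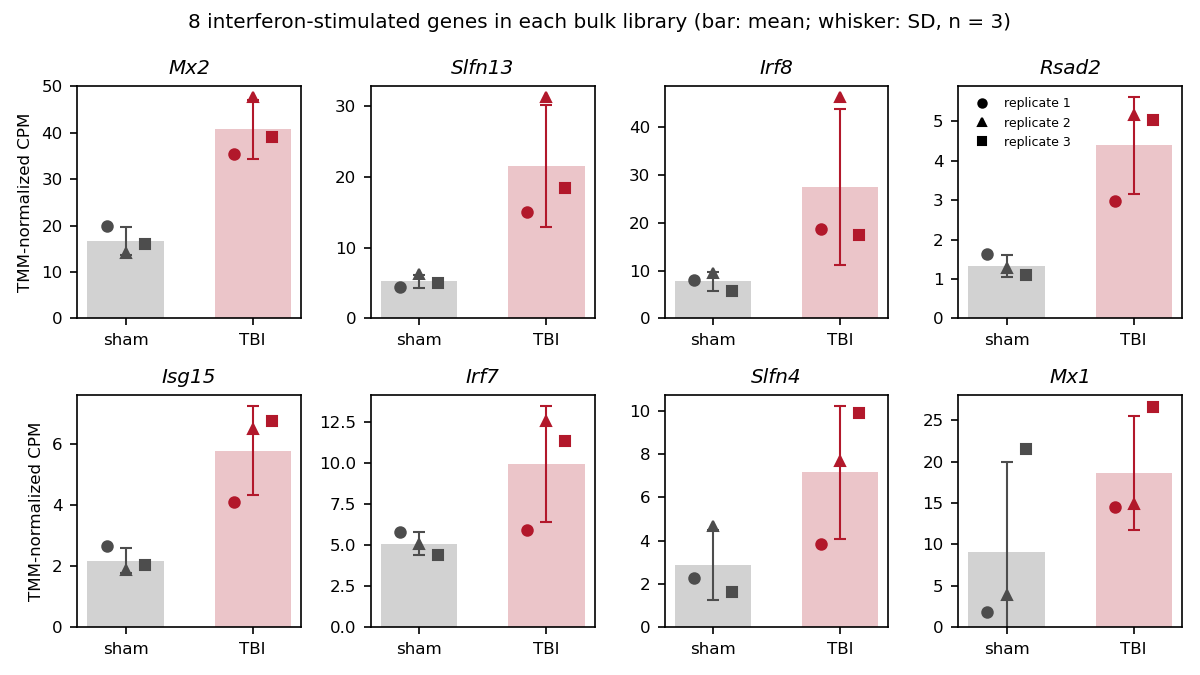
Points are TMM-normalized CPM of 8 interferon-stimulated genes in single bulk libraries (circle, triangle and square for replicates 1 to 3), bars are group means and whiskers the SD of 3 animals; each axis starts at 0, which hides the lower end of the whisker of *Mx1* in sham. Groups separate for *Mx2*, *Slfn13*, *Irf8*, *Rsad2*, *Isg15* and *Irf7* and overlap for *Slfn4* and *Mx1*, where sham animal 3 was at 21.5 CPM.

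Among the 34 members with promoter sequence, the ISRE letters did not mark those with the largest bulk differences. The 8 members without sequence, *Mx2* and *Isg15* among them, could not be placed. The median difference was 0.96 for the 18 members with the letters and 0.89 for the 16 without them. The lowest differences were 0.46 and 0.05, and the largest difference, that of *Slfn13*, belonged to a promoter without the letters. All TBI animals were above all sham animals for 17 of the 18 and for 10 of the 16.

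The 3 TBI animals did not contribute equally. TBI animal 2 held the highest level of 23 members and TBI animal 3 that of 17, whereas these libraries were highest for 13.5% and 19.6% of all genes, and TBI animal 1 and sham animal 2 were highest for 1 member each (*Samhd1* and *Adar*). By the deposited date of injury the animals fell into 2 periods, called surgery periods below. These were spring for sham animals 1 and 2 and TBI animal 1, and autumn for sham animal 3 and TBI animals 2 and 3. Within the spring animals the median difference of the members was 0.39, with 39 of 42 positive, and within the autumn animals it was 1.05, with 38 of 42 positive. Without TBI animal 2 the median was 0.76 and 29 members were higher at an unadjusted p under 0.05, as were 928 of all 14166 genes.

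Markers of several cell types were also higher in the TBI libraries. In bulk tissue more cells of a type and more RNA per cell cannot be told apart. Microglia markers summed to 439 to 464 CPM in sham and 749 to 1319 CPM in TBI over 13 of 14 genes, of which 11 were higher at an unadjusted p under 0.05. The highest sum was in TBI animal 2. Astrocyte markers summed to 4065 to 4939 CPM in sham and 6876 to 9903 CPM in TBI, with *Gfap* at 913 to 1326 and 2513 to 5366 CPM, but 3 of 9 of these markers were higher at that level and their median difference was 0.25. Endothelial markers summed to 260 to 285 CPM in sham and to 312, 291 and 492 CPM in TBI. Of these markers 1 of 9 (11.1%) was higher at that level, compared with 8.2% of all genes. T cell markers (2 of 5 genes in the table) summed to 7.13 to 9.61 and 17.1 to 36.9 CPM. Border macrophage or monocyte markers (4 of 6 genes) summed to 9.74 to 11.8 and 16.1 to 46.6 CPM. The T cell sum in TBI was mostly *Cd4* (13.1 to 36.4 CPM), while *Cd3e*, a chain of the T cell receptor complex, was at 0.0933 to 5.21 CPM in sham and at 10.5, 0.357 and 0.381 CPM in TBI. Pericyte markers summed to 123 to 151 CPM in sham and 158 to 345 CPM in TBI. Fibroblast markers summed to 55.2 to 108 CPM in sham and to 263, 111 and 1543 CPM in TBI. The part of these cell types in the differences of the interferon-stimulated genes was not tested.

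Upstream of the members, 0 of 12 interferon ligand genes were among the tested bulk genes. In the nuclei, 6 of the 12 ligands had 0 UMIs in every library, *Ifng* among them, and the 12 summed to 9 and 7 UMIs in the TBI animals, 9 in the sham animal and 13 in the naïve animal. Across all bulk genes, 8.2% were higher at an unadjusted p under 0.05, the share to set beside the counts that follow. Of 12 receptors, kinases and feedback genes 2 (16.7%) were higher at that level. These were *Ifngr1*, the ligand-binding chain of the interferon gamma receptor, at 44.4 to 49.8 CPM in sham and 67.1 to 101 CPM in TBI (0.77 ± 0.16), and *Il10rb*, a chain shared with interleukin-10 (0.92 ± 0.21). The type I receptor chains had differences of 0.14 ± 0.09 for *Ifnar1* and 0.09 ± 0.14 for *Ifnar2*, both short of that level. Among nucleic acid sensors and adaptors 7 of 11 were higher, including *Sting1*, the adaptor of cytosolic DNA sensing, at 3.10 to 3.46 CPM in sham and 5.72 to 9.62 CPM in TBI (1.13 ± 0.25), and *Tlr7*, the endosomal sensor of single-stranded RNA (1.29 ± 0.31). Of 28 further interferon-induced genes 17 were higher. *Lgals3bp* was at 16 to 19.4 CPM in sham and 30.6 to 49.3 CPM in TBI (1.28 ± 0.19), and *Ifi47*, *Epsti1*, *Rtp4* and *Parp10* had differences of 1.40 ± 0.26, 1.43 ± 0.34, 1.23 ± 0.29 and 1.16 ± 0.25. *Cxcl10*, a chemokine that draws T cells, had the largest difference named here, 2.63 ± 0.64, on levels of 0.0761 to 0.261 CPM in sham and 0.562 to 1.52 CPM in TBI. No gene of these lists was lower at that level, and no adjusted p was under 0.196.

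The snRNA-seq data showed where the 42 genes were read. Clusters of nuclei were named from marker genes, which gave 3147 microglia, 5012 astrocytes, 3325 oligodendrocytes, 2789 oligodendrocyte precursors, 34153 glutamatergic neurons, 3699 GABAergic neurons, 436 endothelial cells and 139 pericytes. UMIs were summed per animal and class and given as CPM; pericytes were not ranked because 1 UMI there equals 16.9 to 36.7 CPM. Over the 7 ranked classes, endothelial nuclei had the highest mean level of 4 animals for 34 of 42 members and microglia for 8. Among the 40 members with a mean of at least 10 UMIs per animal over all nuclei these counts were 33 and 7, whereas 27.2% and 15.5% of all genes with that depth were highest in these classes. The 4 animals' levels lay above all levels of the next class for 13 members in endothelial nuclei (7.46% of all genes) and for 2 in microglia (3.31%).

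In endothelial nuclei, *Ifitm3* had a mean of 215 CPM (lowest animal 122, highest 332), compared with 4.16 CPM in microglia, the next class. *Bst2*, encoding the virus-tethering protein tetherin, was at 108 CPM against 9.33 CPM in microglia, and *Isg15* at 43.6 CPM against 1.66 CPM. In each of the 3 genes the lowest endothelial animal was above the highest animal of the next class. The same held for *Ifi27*, at 579 CPM against 61.3 CPM in astrocytes, for *Herc6*, at 105 CPM against 29.1 CPM in astrocytes, and for *Trim25*, at 123 CPM against 30.1 CPM in microglia. *Ifit2*, *Ifit3*, *Rsad2*, *Gbp2*, *Irgm*, *Dtx3l* and *Ifi44* completed the 13. For *Mx2* the endothelial mean was 106 CPM against 14.1 CPM in astrocytes, but its range of 7.16 to 182 CPM overlapped with that of astrocytes. Glutamatergic neurons had means of 0.0365 to 18.6 CPM for the members other than *Adar*, which was at 98.8 CPM there.

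The 8 members highest in microglia were *Irf8*, *Slfn13*, *Slfn4*, *Mx1*, *Stat2*, *Adar*, *Samhd1* and *Zbp1*. *Irf8* had a mean of 103 CPM (lowest 51.7, highest 154) against 5.68 CPM in astrocytes, and *Slfn13* had 64.1 CPM (lowest 31.3, highest 122) against 14.8 CPM in oligodendrocyte precursors. Neither range overlapped with that of the next class. *Zbp1* also did not overlap, on only 9 UMIs. For *Adar* the order was not resolved, with 110 to 146 CPM in microglia and 100 to 121 CPM in GABAergic neurons, nor for *Samhd1*, with 14.1 to 27.2 CPM in microglia and 14.1 to 19.7 CPM in astrocytes.

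**Figure D4:**
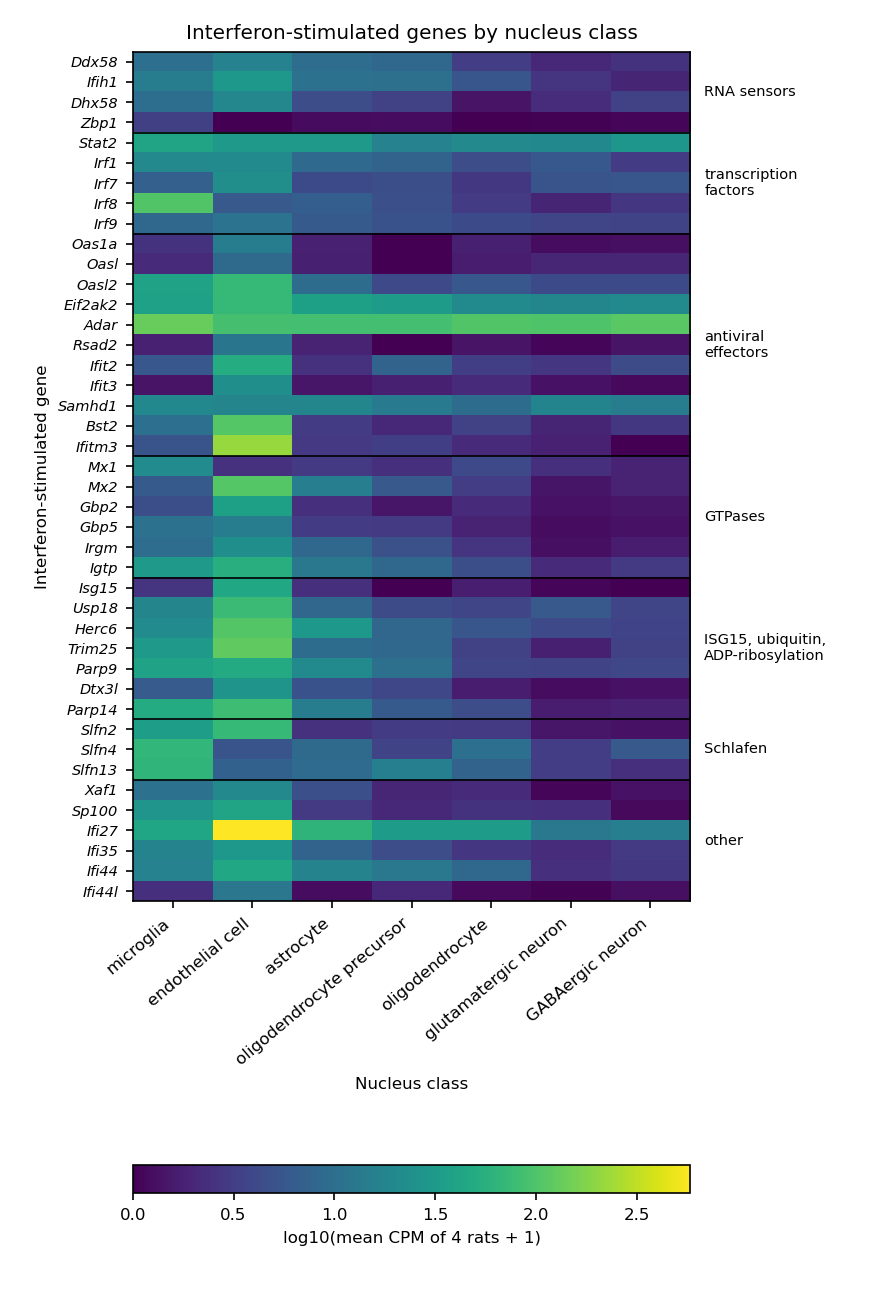
Color gives log10 of the mean CPM of 4 animals plus 1 for each of the 42 genes (lines, grouped by role) in each nucleus class (columns). The endothelial column is brightest for 34 members among the 7 ranked classes and the microglia column for 8, and *Adar* is bright in every class.

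Between conditions, the 2 TBI animals were compared with the sham and naïve animals together, on sums per animal. edgeR's quasi-likelihood test called 0 genes at an FDR of 0.01 in any class and in all nuclei summed (0% of genes tested). It tested 22 members in microglia, 28 in astrocytes, 5 in oligodendrocytes, 10 in oligodendrocyte precursors, 33 in glutamatergic neurons, 9 in GABAergic neurons, 20 in endothelial cells, 0 in pericytes and 40 in all nuclei summed. The other members did not reach the minimum of the count filter in at least 2 libraries, also where 1 animal was high. At an unadjusted p under 0.05, 2 members were higher in microglia, 1 each in astrocytes and endothelial cells, and 2 in all nuclei, compared with 1.15%, 6.69%, 2.3% and 2.09% of all genes tested. In oligodendrocyte precursors (1.81% of genes) and glutamatergic neurons (0.865% of genes) 1 member each was past that level, *Ifi44* and *Mx2*. Both passed the count filter only through the TBI animals, in which they were high, so their p is not read as a difference. In oligodendrocytes and GABAergic neurons 0 members were higher, compared with 1.22% and 0.863% of genes. No member was lower at that level in any class, compared with 1.11% of genes in microglia, 5.52% in astrocytes, 0.953% in oligodendrocytes, 1.3% in their precursors, 0.348% in glutamatergic neurons, 0.481% in GABAergic neurons, 1.5% in endothelial cells and 1.35% in all nuclei.

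Over all nuclei, the summed level of the 42 members was 290 CPM in TBI animal 1, 396 CPM in TBI animal 2, 263 CPM in the sham animal and 260 CPM in the naïve animal. TBI animal 2 was above both controls for 34 of 40 members (38.9% of all genes with that depth), and TBI animal 1 for 17 (41% of all genes). Both were above both controls for 14 members (23.8%) and below them for 0 (9.89%). With 5, 29, 8 and 14 UMIs in TBI animals 1 and 2, sham and naïve, *Oas1a* reached that depth only through TBI animal 2. The median difference of the 40 members fitted was 0.45 with both TBI animals and -0.04 without TBI animal 2. *Irf8* was at 166 and 259 UMIs in the TBI animals and at 72 and 105 UMIs in the sham and naïve animals, or 5.11, 9.93, 2.04 and 3.02 CPM. *Slfn13* was at 5.54, 10.3, 2.86 and 4.28 CPM in the same order. Both TBI animals were above both controls in these genes, with differences of 1.50 ± 0.45 and 1.07 ± 0.43 (adjusted p = 0.982 for both). Within microglia, where *Irf8* was mainly read, it was at 98.8, 154, 51.7 and 108 CPM, so TBI animal 1 was below the naïve animal, with a difference of 0.65 ± 0.38.

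Microglia made up 5.92% and 9.16% of nuclei in the TBI animals and 3.86% and 3.85% in the sham and naïve animals. Within microglia the summed level of the members was 766 and 1599 CPM in the TBI animals and 587 and 942 CPM in the sham and naïve animals, so TBI animal 1 lay between the controls. TBI animal 2 was above both controls for 16 of 22 members with a mean of at least 10 UMIs (32.6% of all genes), TBI animal 1 for 4 (32.8%) and both for 3 (18.6%). Some members reached that mean only through TBI animal 2, such as *Mx1*, which is among the 3, and *Usp18*. In TBI animals 1 and 2, sham and naïve they had 7, 82, 1 and 4 UMIs and 3, 64, 5 and 3 UMIs. These counts are therefore not read as a difference. *Slfn13* was at 63 and 152 UMIs in the TBI animals and 20 UMIs in each control, or 66.9, 122, 31.3 and 36.4 CPM. It was the member whose microglial levels separated with the smallest p, with a difference of 1.45 ± 0.37 (adjusted p = 0.999), and without TBI animal 2 the difference was 0.95. *Slfn13* had UMIs in 8.10% and 10.0% of microglia in the TBI animals and in 2.91% and 4.38% in the sham and naïve animals, whereas 0.261% to 0.561% of the glutamatergic neurons had one, at median depths of 632 to 817 and 1794 to 2761 UMIs.

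*Slfn4* in microglia was high in 1 animal alone. It was at 16 UMIs in TBI animal 1, 282 UMIs in TBI animal 2, 11 UMIs in the sham animal and 4 UMIs in the naïve animal, or 17, 226, 17.2 and 7.29 CPM. The groups overlapped, the fitted difference was 3.24 ± 1.11 (adjusted p = 0.999), and without TBI animal 2 it was 0.41. The high *Slfn4* level of TBI animal 2 was not confined to microglia. In the same order it was at 2.71, 23.2, 5.12 and 1.34 CPM in astrocytes. In oligodendrocytes it was at 1.75, 23.5, 8.36 and 2.83 CPM. In GABAergic neurons it was at 1.96, 12.2, 3.91 and 1.62 CPM, but in glutamatergic neurons at 2.18, 2.83, 2.69 and 1.15 CPM. *Mx1* in microglia was likewise highest in TBI animal 2, with 7, 82, 1 and 4 UMIs, or 7.44, 65.7, 1.57 and 7.29 CPM. It was not tested there for its low counts. In TBI animal 2, 7.20% of microglia had a *Slfn4* UMI (95% Clopper-Pearson interval 5.87% to 8.73%) and 4.32% a *Mx1* UMI (3.29% to 5.56%), while 0.483% and 0.392% of its glutamatergic neurons had one. These intervals cover counting error only.

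The *Slfn4* UMIs of TBI animal 2 were concentrated in few nuclei. Of 1319 microglia 95 had at least 1, the highest nucleus had 15, and the 33 nuclei with 3 or more held 208 of the 282 UMIs, whereas no microglial nucleus of the other animals had more than 2. Among the 95 nuclei, 24.2% also had a *Mx1* UMI, against 2.78% of the 1224 without *Slfn4*. *Usp18* was read in 13.7% against 3.68%, *Herc6* in 12.6% against 1.96%, *Oasl2* in 12.6% against 3.68%, *Ifih1* in 10.5% against 1.14% and *Irf8* in 23.2% against 11.4%. *Adar* was read in similar shares, 11.6% against 11.3%, as were *Ifi27*, 4.21% against 4.41%, and *Sp100*, 3.16% against 3.19%. *Isg15*, *Ifitm3* and *Rsad2* were read in 0% of the 95 nuclei, against 0.490%, 0.980% and 0.163%. The genes named here were picked after their shares were seen. In TBI animal 1, 0 of its 14 microglia with *Slfn4* had a *Mx1* UMI. Median depths were 677 and 629 UMIs, and the shares are given as a description of 1 animal, with no test. In the same animal, T cell markers summed to 5.60 CPM over all nuclei, against 1.63 to 2.24 CPM in the other animals, and border macrophage or monocyte markers to 5.98 against 2.21 to 2.74 CPM. Their part in these values was not tested, nor was that of the stored zeros, which were most frequent in this library.

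Endothelial nuclei numbered only 48 to 156 per animal, and the naïve animal was not low. The members summed to 1555 and 3281 CPM in the TBI animals, 1566 CPM in the sham animal and 3053 CPM in the naïve animal. *Oasl2*, an oligoadenylate synthetase-like gene, was the member with an unadjusted p under 0.05 here. It was at 22 and 39 UMIs in the TBI animals and 8 and 9 UMIs in the sham and naïve animals, or 82.6, 134, 19.1 and 48.1 CPM, a difference of 1.84 ± 0.51 without overlap (adjusted p = 0.9996). *Mx2* was at 67.6, 168, 7.16 and 182 CPM in the same order, and *Isg15* at 22.5, 51.4, 9.55 and 90.9 CPM. In both genes the naïve animal was above both TBI animals and the sham animal was lowest, so the control that is chosen sets the direction. *Bst2* had the same order, at 67.6, 123, 38.2 and 203 CPM.

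Few members had an unadjusted p under 0.05 in the other classes by edgeR's test. The 42 members summed to 610 CPM in astrocytes of TBI animal 2, against 384 to 456 CPM in the other animals. In oligodendrocytes this was 386 against 209 to 256 CPM, and in their precursors 450 against 247 to 315 CPM. In GABAergic neurons it was 272 against 204 to 262 CPM. In glutamatergic neurons TBI animal 1 was highest, at 239 CPM against 185 to 217 CPM. *Slfn13* in astrocytes was at 38 and 41 UMIs in the TBI animals and at 20 and 24 UMIs in the sham and naïve animals, or 9.38, 13.8, 5.12 and 4.60 CPM, with a difference of 1.18 ± 0.40 (adjusted p = 0.311). *Ifi44* in oligodendrocyte precursors was at 17, 19, 4 and 7 UMIs, or 15.8, 19.0, 3.94 and 8.67 CPM. Both separated the 2 TBI animals from both controls. However, *Ifi44* here and *Mx2* in glutamatergic neurons passed the count filter only through the TBI animals, so neither is read as a difference. *Mx2* in glutamatergic neurons was at 14 UMIs in each TBI animal and at 3 and 0 UMIs in the sham and naïve animals, which is at or under a floor of 3 counts per library, and among 15559657 to 24516960 UMIs these are levels under 1 CPM. In astrocytes *Mx2* was at 8.88, 34.0, 1.02 and 12.5 CPM, again with the naïve animal above TBI animal 1.

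**Figure D5:**
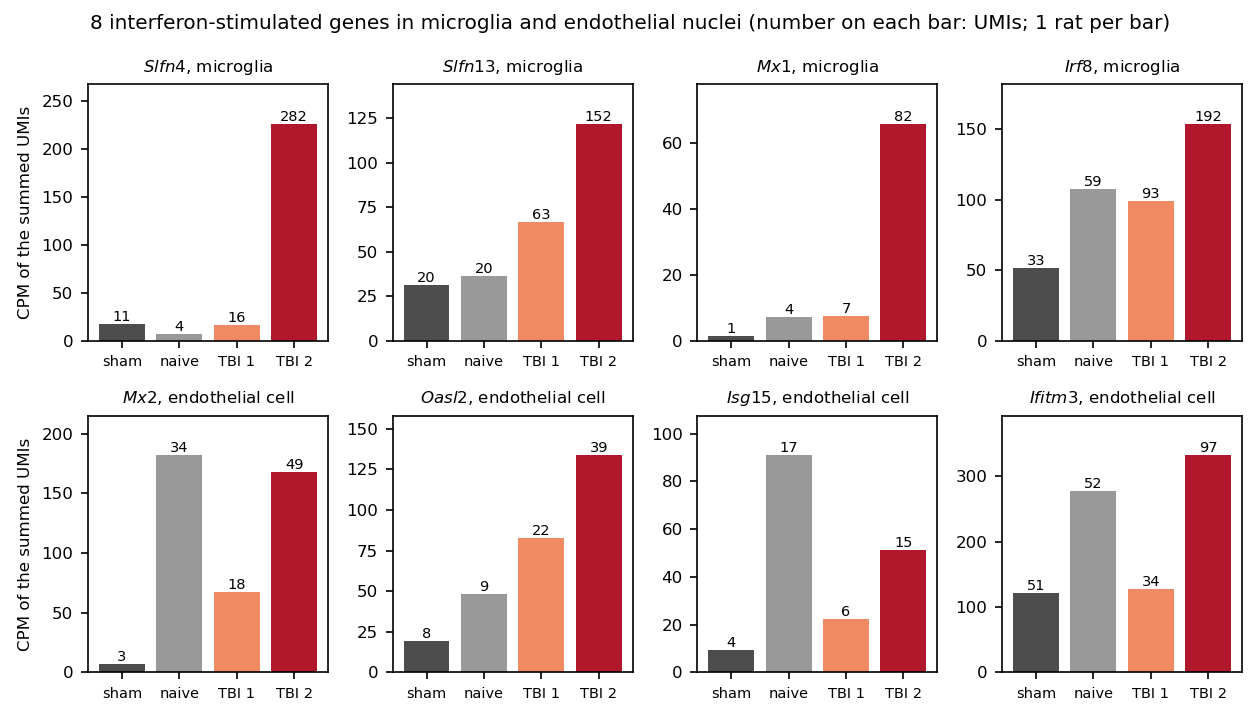
Bars are CPM of the summed UMIs of microglia (upper panels) or endothelial nuclei (lower panels) for 8 gene and class pairs, 1 animal per bar, with the UMIs printed on each bar and every axis starting at 0. In microglia TBI 2 is the highest bar for *Slfn4*, *Slfn13*, *Mx1* and *Irf8*, and in endothelial nuclei the naïve animal is the highest for *Mx2* and *Isg15*.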

How the data were processed

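Bulk polyadenylated RNA was quantified by the authors with kallisto, and the deposited transcript table holds their estimated counts. The authors filtered and normalized gene counts in ExpressAnalyst and deposited them as log2 CPM, with 0.5 added to each count. The scaling was undone to give whole counts, which were rounded and fitted with edgeR 4.0.16 (TMM, quasi-likelihood, TBI against sham, Benjamini-Hochberg over 14166 genes, FDR 0.01). For snRNA-seq the authors deposited UMI counts per gene and nucleus from Cell Ranger (Rnor_6.0, introns included); the matrices hold explicit zeros, and no source read here says whether counts were corrected before deposit. The submitters' processing notes also name DESeq2 and Seurat.

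Nuclei with at least 500 UMIs, 300 genes, 0.8 log10 genes per UMI, at most 5% mitochondrial and 2% ribosomal UMIs were kept (55124 of 55863). They were integrated and clustered with Seurat 5.3.0 (resolution 0.6, 25 components, 23 clusters) and named by marker genes; 2424 nuclei in clusters without a clear match stayed unnamed. No doublet caller was run. UMIs were summed per animal and class, and the 2 TBI animals were fitted against the 2 controls in edgeR (filterByExpr). A class named here is rebuilt and may differ from the study's own. Transcript totals, 25121893 to 44649404 per bulk library, limit the precision of low genes.

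Differences within a surgery period, which was taken from the date of injury, used log2(CPM + 0.5). Motif letters were counted in RefSeq GRCr8 promoters, an assembly other than the authors' build, so they carry no read positions. Alternatives were DESeq2 1.42.0, limma 3.58.1, other size factors, other filters, a replicate block, surgery period as a factor, a minimum of 1000 UMIs, nuclei classed one by one, and each animal left out; all nuclei summed, single microglia clusters and the ranking of pericytes were added after seeing the data. The nuclei were read with Python 3.11.15 and R 4.3.3, and intervals with scipy 1.17.1. The main edgeR fits and DESeq2 were first run on simulated counts, and the other alternatives were not. All 42 members are accounted for. Values in every library are given for the 16 members with the smallest p and for *Mx1*, *Slfn4*, *Slfn13*, *Irf7* and *Isg15*; in nuclei for members with at least 20 UMIs in a class and p under 0.05, and for *Mx1*, *Slfn4* and *Slfn13* in microglia; and for at most 10 pathway genes with the smallest p. Others named with values, such as the type I receptor chains, were chosen after their values were seen. The members and lists were chosen with earlier results of these data known. Fold changes that the authors deposited were not used.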

Additional observations from a re-analysis of the deposited data

Results flagged for a closer look

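Among members with at least 20 UMIs in each of the classes compared, 4 had an opposite order in different classes, in that both TBI animals lay above both controls in one nucleus class and below both controls in another. The share of all genes with such an opposite order was not counted, so the 4 are not read as a trait of the members. The difference between classes was not tested, and each value is the log2 of the mean TBI CPM over the mean control CPM. *Ifih1* was at 0.70 in oligodendrocyte precursors and -0.26 in astrocytes. *Eif2ak2* was at 0.47 in oligodendrocyte precursors and -0.71 in oligodendrocytes. *Samhd1* was at 0.14 in glutamatergic neurons and -0.37 in astrocytes. In glutamatergic neurons its lowest TBI animal was at 16.8 CPM and the sham animal at 16.4 CPM. *Herc6* was at 0.86 in microglia, 0.79 in oligodendrocyte precursors and 0.62 in glutamatergic neurons, and at -0.69 in GABAergic neurons, where it rests on 5 to 11 UMIs per animal.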

How the results depend on the processing

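In bulk, the 19 members given by single library kept their direction in all 228 refits, and 11 of them passed the FDR of 0.01 with DESeq2. DESeq2 called 169 genes and 11 members, and 475 genes and 21 members when adjusted only over genes with p under 0.05. Nothing read here shows that the replicate numbers pair the animals. Those numbered 2 came from different surgery periods, spring for sham and autumn for TBI, so the replicate block is only an alternative setting. Correlations of deviations were 0.38, 0.22 and -0.03 for animals with the same number and -0.31 to 0.12 for the others. With a replicate block edgeR called 1 gene and 0 members. In that fit 35 members were higher at p under 0.05, and the smallest adjusted p of a member was 0.0394. With surgery period as a factor 0 genes were called, 26 members and 789 of 14166 genes were higher at p under 0.05, and the median was 0.84. With each bulk animal left out in turn, 0 genes were called, 28 to 35 members and 713 to 1343 genes were higher at p under 0.05, and the median was 0.76 to 1.05.

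In nuclei, without a low-count filter 12 genes were called in microglia (2 members, *Slfn4* and *Mx1*), 310 in astrocytes (2 members, *Slfn4* and *Mx2*), 12 in oligodendrocytes, 27 in their precursors and 3 in pericytes. DESeq2 called 93 in astrocytes and 1 over all nuclei. With each animal left out, where a lone animal is assumed to vary like the others, the calls ranged from 0 to 8 in microglia (0 to 2 members, *Slfn4* and *Mx1* without TBI animal 1), 0 to 4 in astrocytes, 0 to 17 in oligodendrocytes, 0 to 8 in precursors, 0 to 32 in glutamatergic neurons, 0 to 22 in GABAergic neurons, 0 to 4 in endothelial cells (0 to 1 member, *Mx2* without the naïve animal), 0 to 43 in pericytes and 0 to 58 over all nuclei (0 to 1 member, *Slfn4* without TBI animal 1). Over all 42 members, those highest without overlap numbered 13 in endothelial nuclei and 3 in microglia in the main setting. With at least 1000 UMIs per nucleus they numbered 21 and 1, with nuclei classed one by one 12 and 3, and with pericytes ranked 9 and 2. With an animal left out they numbered 14 to 17 and 3 to 5, where fewer animals make the compared ranges narrower. The share of all genes was not counted in these settings, so the counts are a description. Without TBI animal 2 the median difference of tested members was -0.20 in microglia instead of 0.23. At the depth reached, 1 UMI equals 2.39 to 5.35 CPM in endothelial cells.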
